A study of Mus musculus with 2 samples.

Results

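Bone marrow MP cells are 118 of the 10088 cells of a bone marrow library of hematopoietic stem and progenitor cells, in a series of 16634 cells over 2 libraries. They were taken by the authors' deposited cell table, as the cells of bone marrow origin that the authors placed in the cluster they named MP, a name that is not spelled out in the table. C57BL/6 mice received Hepa1-6 cells, a mouse hepatoma line, in the left lobe of the liver at 6 to 8 weeks of age, and both libraries came from animals with this orthotopic tumour. LSK cells, with low or no lineage antigens, Sca1 and high c-Kit, were enriched on lineage depletion or CD117 magnetic beads and sorted by flow cytometry, and 1 droplet library was made from the marrow and 1 from the spleen. The labels do not state how many mice were pooled, and mice without a tumour were not analysed here. With 1 library per tissue there is no replicate and no test. Values are therefore compared by size, and every interval is a 95% interval that covers counting error only.

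Dendritic cells take up, process and present antigen. They load peptides on MHC class II molecules, whose chains are chaperoned by Cd74 and whose transcription depends on the coactivator Ciita. Type 1 conventional dendritic cells, which present antigen from dead cells to cytotoxic T cells, are specified by the transcription factors Irf8, Batf3 and Id2 and carry the chemokine receptor Xcr1 and the lectin Clec9a. Type 2 conventional dendritic cells are marked by Sirpa and Cd209a, and plasmacytoid dendritic cells, a main source of type I interferon, by Siglech and Tcf4. All of these arise from Flt3-bearing progenitors of the marrow.

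MP was a small share of the marrow library, 1.17% of its cells, with exact Clopper-Pearson limits of 0.969 and 1.40%. In the spleen library MP was 21.6% of 6546 cells. The 118 cells held 986230 UMIs (unique molecular identifiers, counted molecules), with a median of 7394 per cell and a range of 1331 to 28275. The other 9970 marrow cells had a median of 5981 UMIs, and the 1413 spleen MP cells a median of 10725. Mitochondrial UMIs made up a median of 3.23% of each MP cell and 3.24% of each other marrow cell. Of all barcodes, 16 occurred in both libraries, none of them on a marrow MP cell. A doublet caller marked 1 marrow cell in all and no MP cell, which is too few for the call to be used, so doublets were not removed.

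Irf8, Cd74 and Cst3, the markers proposed for these cells, were read first against the label. Irf8 was counted in 89 of the 118 cells (75.4%), with a lowest count of 0 UMIs, a median of 8.5 and a highest of 30. Cd74 was counted in 103 cells (87.3%), with a median of 64 UMIs and a highest of 248, and Cst3, a secreted inhibitor of cathepsins, in 108 cells (91.5%), with a median of 53 and a highest of 241. In MEP, a marrow cluster taken here to lack dendritic genes and used as the level that free RNA can give, Irf8 had a UMI in 5.88% of cells and Cd74 in 4.48%, at a deeper median of 11230 UMIs. Cst3 did not separate the cells by detection, since 73.9% of MEP cells had a UMI of it, but by level. Its level was 7358 CPM (the gene's UMIs per 1000000 UMIs of the summed cells) in MP and 307 CPM in the other marrow cells. All 3 markers were thus high in the cluster as a whole, while 29 cells lacked Irf8, 15 lacked Cd74 and 10 lacked Cst3.

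MP cells stood apart from the rest of the marrow first by the genes of class II presentation. H2-Eb1, a class II beta chain, was at 3430 CPM in MP and 8.08 CPM elsewhere, a 424-fold ratio (389 to 464). Cd74 was at 8073 against 21.4 CPM (378-fold, 358 to 399), and H2-Aa, a class II alpha chain, at 4401 against 13.3 CPM (330-fold, 308 to 354). Ciita was at 256 against 2.24 CPM. Of the 11 measured genes of the class II list, 10 were at least 1.5-fold higher in MP, none was as much lower, and Rfx5, a subunit of the factor that binds class II promoters, was level at 24.3 and 24.2 CPM. The median log2 ratio of the list was 3.67, and that of all 6608 genes tested was -0.13, with 11.4% of them at least 1.5-fold higher and 15.6% lower. The clusters were drawn by the authors from the expression of the same cells, so these values describe the cluster and test nothing. A total of 83.7% of all Cd74 UMIs of the marrow library lay in these 118 cells.

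Upstream bases of H2-Aa and H2-Eb1 are shown because both genes lead the cluster and both hold the letters of the Y box, the element bound by the trimeric factor NF-Y in class II promoters. The sequences are the 160 bases before the annotated start (RefSeq, GRCm38.p6), for H2-Aa at chr17:34287824-34287983 on the minus strand and for H2-Eb1 at chr17:34305707-34305866 on the plus strand. Capitals mark the letters CTGATTGG, which begin 51 bases before the start in H2-Aa and 62 bases before it in H2-Eb1.
H2-Aa: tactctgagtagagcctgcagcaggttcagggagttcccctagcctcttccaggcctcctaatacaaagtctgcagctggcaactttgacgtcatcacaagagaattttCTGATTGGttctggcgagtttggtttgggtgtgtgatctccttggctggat
H2-Eb1: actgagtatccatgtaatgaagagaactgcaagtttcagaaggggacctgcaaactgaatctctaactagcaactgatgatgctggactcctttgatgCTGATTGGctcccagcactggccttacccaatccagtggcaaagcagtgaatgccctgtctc
Searched on both strands of 300 bases around each start, this motif was in 1346 of 32851 promoters (4.10%), and in 3 of the 8 class II list genes with a promoter in the table. A match of letters is a description and not evidence of binding.

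Markers of type 1 conventional dendritic cells were next. Of 15 type 1 markers 14 were tested, and 13 of them were at least 1.5-fold higher in MP than in other marrow cells, with a median log2 ratio of 5.85 (log2 ratios are of CPM + 1). The exception was Cd24a, at 238 and 160 CPM. Xcr1 was at 174 CPM in MP and 0.206 CPM elsewhere (846-fold), with 65 of 118 cells holding a UMI and none of 357 MEP cells, which allows a share there of up to 1.03%. Clec9a was at 133 against 0.371 CPM, Batf3 at 104 against 0.151 CPM, and Tlr3, a sensor of double-stranded RNA, at 154 against 0.646 CPM. MP held 92.0% of the Xcr1, 82.9% of the Clec9a and 90.4% of the Batf3 UMIs of the library, but 28.5% of those of Irf8, which LP cells also carried at 103 CPM. Naaa, a lysosomal acid amidase, was at 452 against 2.89 CPM (157-fold, 133 to 185), and Plbd1, a phospholipase B-like gene, at 516 against 0.715 CPM (722-fold, 542 to 980).

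Monocyte markers were higher in MP, in 4 of the 5 tested of 13 listed, with 1 lower and a median log2 ratio of 1.54. Mpeg1, which encodes the pore-forming perforin-2 of phagocytes, was at 608 against 11.3 CPM, Ccr2 at 118 against 6.39 CPM and Lyz2, lysozyme, at 259 against 88.4 CPM, while Ly6c2 was lower at 9.13 against 32.1 CPM. Cd209a had no UMI in MP, Siglech 1 UMI and Csf1r, the receptor for macrophage colony-stimulating factor, 5.07 CPM against 8.38 CPM elsewhere. Of the 14 type 2 markers 6 were abundant enough to be tested, and 2 were higher, 3 lower and 1 between. Klf4, a transcription factor of type 2 cells and of monocytes, was the highest of these at 150 against 11.1 CPM. Of 15 plasmacytoid markers 4 were tested and 1, Irf7, was higher, at 74.0 against 18.3 CPM. Granulocyte precursor genes were at the other end, with all 6 tested genes lower in MP and a median log2 ratio of -3.55. Elane, neutrophil elastase, was at 7.10 CPM against 362 CPM (51.1-fold lower, 24.8 to 127) and Mpo, myeloperoxidase, at 47.7 against 605 CPM (12.7-fold lower, 9.54 to 17.3). The list counts above are at 1.5-fold, where 11.4% of all 6608 genes tested were higher in MP and 15.6% lower. At 2-fold, 6.04% were higher in MP and 3.65% lower, which is 399 and 241 genes. With TMM factors, which assume that most genes do not differ, these were 464 and 167 of 6606.

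Stem cell genes were lower in MP than in the rest of the marrow but far from absent. Of 13 tested genes of the stem cell list 9 were lower by 1.5-fold, 3 were between and 1 was higher, with a median log2 ratio of -0.73. The higher one was Ly6a, which encodes the Sca1 antigen of the sort gate, at 124 against 69.7 CPM. Hlf, a transcription factor of stem cells, was at 249 CPM in MP and 415 CPM elsewhere, and Kit, the c-Kit receptor of the gate, at 210 and 274 CPM. Genes of S phase were lower in 16 of 18 cases, with a median log2 ratio of -0.87, while 19 of 20 genes of G2 and mitosis lay within 1.5-fold. Interferon-stimulated genes were higher in 12 of the 13 tested, of 17 listed, with a median of 1.35. This list and Ly6a were not high in MP cells alike, by the reference labels described below. The list summed to 2174 CPM in progenitor-labelled and 432 CPM in dendritic-labelled MP cells, and to 298 CPM in the other marrow cells. Ly6a was at 44.9 CPM in dendritic-labelled MP cells. Immediate early genes were higher in 7 of 11, among them Fos at 1282 against 322 CPM. At 1.5-fold, the limit of all these counts, 11.4% of all genes tested were higher and 15.6% lower. Atf3, a stress-induced factor, was at 116 against 1.37 CPM.

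The deposited reference labels divided the 118 cells into 4 kinds. A first set of labels, from a mouse cell atlas, named a dendritic cell for 67 cells (56.8%, exact interval 47.3 to 65.9%), a multipotent or hematopoietic progenitor for 38 (32.2%, 23.9 to 41.4%), a macrophage for 8 and a B cell for 5. A second set, named for Izzo in the table, gave Mono-3 to 54 of the 67 dendritic-labelled cells and to all 8 macrophage-labelled cells, and a stem cell class to 37 of the 38 progenitor-labelled cells, 35 of them HSC-1. Of the 68 marrow cells with a dendritic label 67 lay in MP, and the other lay in LP. In the spleen MP cluster 1299 of 1413 cells had a dendritic label and 4 the Ctla2a-high progenitor label, which 35 marrow MP cells had. Both sets of labels were made from the RNA of these cells, so differences between the labelled kinds are descriptions.

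**Figure D1:**
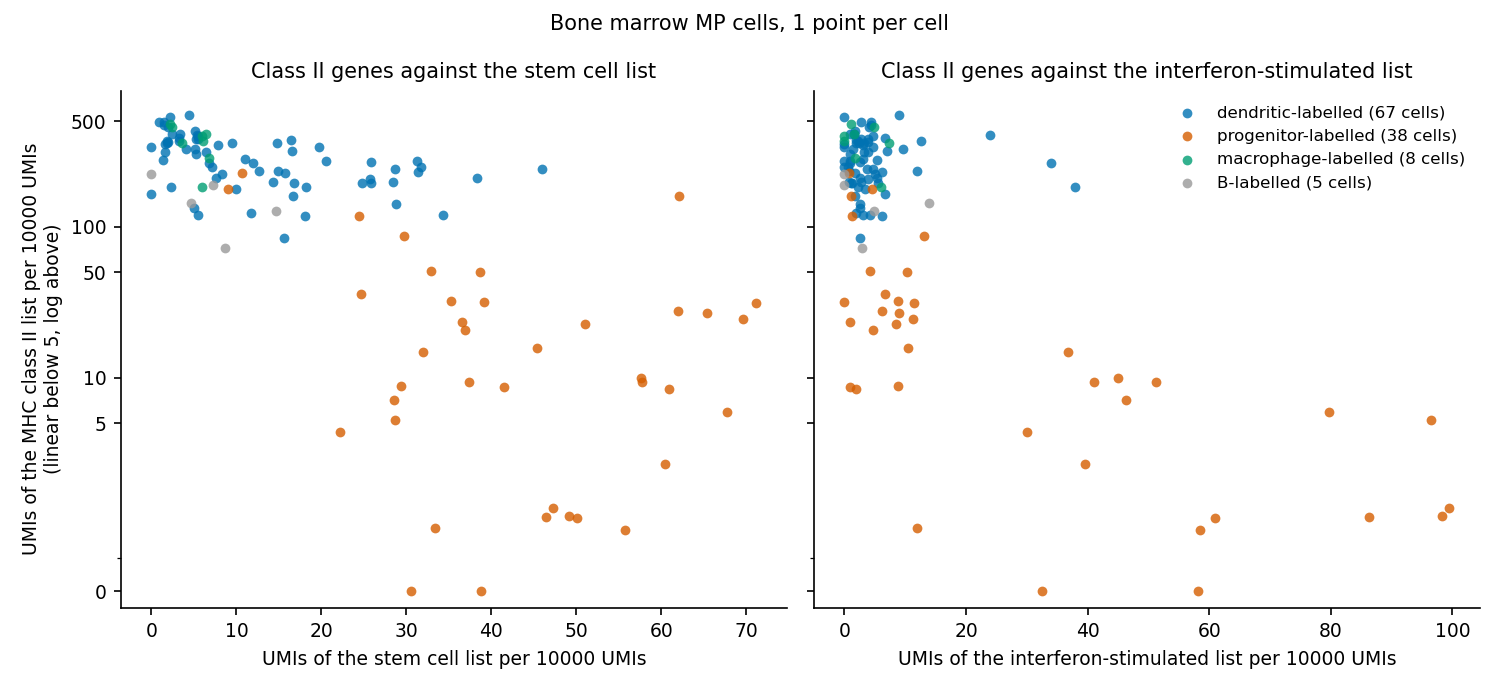
Each point is 1 of the 118 marrow MP cells, coloured by its reference label, with the UMIs of the 11 class II genes per 10000 UMIs of the cell on the vertical axis (linear below 5, logarithmic above) and those of the 17 stem cell genes (left) or 17 interferon-stimulated genes (right) on the horizontal axis. Dendritic-labelled cells lie at 84.3 or more on the class II axis, and the cells at 40 or more of the interferon list all carry a progenitor label and lie at 10.0 or less.

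Dendritic-labelled cells carried the class II and type 1 genes. Their class II UMIs per 10000 ran from 84.3 over a median of 275 to 552, and none of them overlapped with the 5049 cells of the HSC-1 cluster, the most common marrow cluster, whose median was 3.86 and highest value 32.5. Macrophage-labelled cells overlapped with them, at 182, 384 and 479 for the lowest, median and highest cell. Progenitor-labelled cells ran from 0 over a median of 12.4 to 228 and so reached into the dendritic range. Xcr1 was at 237 CPM in dendritic-labelled and at 21.5 CPM (6 UMIs) in progenitor-labelled cells, and Irf8 at 1502 and 225 CPM. In cells with a dendritic label Irf8 had a UMI in 65 of 67 and Cd74 in all 67.

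In the 8 macrophage-labelled cells 8 of the 12 listed macrophage markers had no UMI among 49840, among them C1qa, a complement subunit of tissue macrophages, and Adgre1, which encodes F4/80. The other 4 had 12 UMIs in all, 5 each of Apoe and of Cd68, a lysosomal glycoprotein, and 1 each of C1qc and Slc40a1, so that the list summed to 241 CPM, against 212 CPM in dendritic-labelled MP cells and 303 CPM in the other marrow cells. Xcr1 was at 261 CPM, Irf8 at 2207 CPM and Cst3 at 17135 CPM. Their type 1 list ran from 43.5 to 80.0 UMIs per 10000, within the range of 11.1 to 162 of the dendritic-labelled cells. Their expression across 6587 genes correlated with that of spleen MP (Spearman 0.778) more than with HSC-1 (0.529). These coefficients run over genes of summed cells, which are not independent, and depend on the number of cells summed. The atlas label here is Plbd1-high macrophage, and Plbd1 was at 863 CPM.

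The 5 B-labelled cells differed in kind from the other MP cells. Cd79a, a signalling chain of the B cell receptor, was at 1640 CPM in them and had no UMI in the dendritic- and macrophage-labelled cells and 6 UMIs in 1 progenitor-labelled cell, and Ighm, the IgM heavy chain, was at 5594 CPM. Their B lineage list ran from 122 to 248 UMIs per 10000. Cst3 had 1 UMI, Kit and Xcr1 had none, and Cd74 was at 6944 CPM. They had few UMIs, 10369 in all and a median of 2053 per cell, and 4.72% mitochondrial UMIs at the median. The second set of labels named all 5 a Cd3d-positive T cell, while Cd3d, Cd3e and Cd3g had no UMI in them.

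Of the dendritic-labelled cells, some also held RNA of stem cell genes. The stem cell list ran from 0 over a median of 7.81 to 46.0 UMIs per 10000 in them, against a median of 47.2 in HSC-1, 8.50 in MEP and 3.24 in the dendritic-labelled MP cells of the spleen. At a limit of 10 per 10000, set after the values were seen, 30 of 67 lay at or above it (44.8%, 32.6 to 57.4%), 6 of the 67 within 20% of it, and in the spleen 53 of 1299 did (4.08%, 3.07 to 5.30%). With every cell thinned at random to 3700 UMIs, 33 of 64 (51.6%) and 92 of 1293 (7.12%) did. The 30 cells had Hlf at 241 CPM, Meis1, a homeobox factor of stem cells, at 195 CPM and Ctla2a, a gene of early progenitors, at 1021 CPM. In the other 37 these were at 39.7, 13.2 and 89.2 CPM, below the MEP levels of 73.9, 82.2 and 447 CPM. MEP cannot serve as the free RNA level for these genes, since 166 of 357 MEP cells (46.5%) lay at or above 10 too. Whether the RNA in the 37 cells was expressed by them was not tested.

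Class II RNA was lower in the cells with more stem cell RNA. The 30 cells had a class II median of 229 per 10000 and the 37 a median of 359, and across the 67 cells the Spearman coefficient between the lists was -0.57, as a description, since all cells share 1 library and both lists are shares of the same UMIs. Cd74 was at 8459 and 12813 CPM, Batf3 at 96.0 and 178 CPM and Naaa at 413 and 796 CPM. Clec9a was close in both, at 175 and 182 CPM. The 30 cells were also deeper, with a median of 11848 against 7495 UMIs, and the coefficient between the stem cell list and UMIs per cell was 0.52 over the 67. The part of free RNA, or of droplets with a stem cell and a dendritic cell together, in these values was not tested. The authors' pseudotime, a score without unit along a trajectory, had nearly the same median in both, 18.6.

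Progenitor-labelled MP cells resembled the stem cell cluster. Across 6587 genes their summed expression had a Spearman coefficient of 0.896 with HSC-1 and 0.641 with spleen MP, where the dendritic-labelled cells had 0.737 and 0.877. Of 12 tested stem cell genes 11 lay between the 1.5-fold limits to HSC-1, and Ly6a was higher at 297 against 108 CPM. Most of all 3390 genes tested lay between these limits too, with 6.61% higher and 3.83% lower. The median log2 ratio of the stem cell list was -0.32, against 0.01 over all genes tested. Its sum was 3998 CPM, against 4780 CPM in HSC-1. All 7 tested genes of G2 and mitosis were higher in the sum, with a median log2 ratio of 1.44, but 4 of the 38 cells held 411 of the 494 UMIs of that list (83.2%), and 2 of these 4 had class II values in the dendritic-labelled range. The median cell had 2.89 UMIs of the list per 10000, against 1.74 in HSC-1. Hlf was at 529 against 674 CPM and Ctla2a at 1609 against 2164 CPM. Class II and interferon-stimulated genes were higher than in HSC-1 by more. Cd74 was at 1430 against 34.9 CPM (40.9-fold, 36.3 to 46.1) and H2-Eb1 was 54.9-fold higher (45.6 to 66.1) at 658 CPM, with 6 of 6 tested class II genes higher. All 13 tested interferon-stimulated genes were higher, with a median log2 ratio of 2.42 against 0.01 over the 3390 genes tested, of which 6.61% were 1.5-fold higher and 3.83% lower (2-fold, 2.36% and 0.354%). Cxcl10, an interferon-induced chemokine, was at 89.4 against 0.678 CPM (132-fold, 69.1 to 257).

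Class II and interferon-stimulated RNA lay largely in different progenitor-labelled cells. Of 1207 UMIs of the class II list in the 38 cells, the 3 richest cells held 633 (52.4%) and the 5 richest 870 (72.1%). The interferon list ran from 0 over a median of 11.3 to 99.5 UMIs per 10000, against a median of 2.96 in HSC-1. At a limit of 40 per 10000, set after the values were seen, 12 MP cells lay at or above it, all with a progenitor label, and 8 of the 118 lay within 20% of it. They were 10.2% of marrow MP (5.37 to 17.1%), against 5 of the 9970 other marrow cells (0.0502%, 0.0163 to 0.117%), 3 of these in HSC-1. None of the 67 dendritic-labelled cells did, which allows up to 5.36%. Thinned to 3700 UMIs, 10 of 32 progenitor-labelled and 1 of 64 dendritic-labelled cells did. In spleen MP 75 of 1413 cells did (5.31%, 4.20 to 6.61%), and there such cells had a class II median of 522 per 10000 against 506 in the others. The list includes the chemokine gene Cxcl9, at 406 of the list's 962 CPM in spleen MP and 37.5 of 919 CPM in marrow MP. Whether cells of both tissues passed the limit through the same genes was not tested. The 12 cells had class II values of 0 to 10.0 per 10000 with a median of 3.85, against 3.86 in HSC-1, and no cell had more than 7 UMIs of Cd74, H2-Aa, H2-Ab1 and H2-Eb1 together. Across the 38 cells the coefficient between the lists was -0.72, again over cells of 1 library. These 38 are the 0.526% of the 7229 progenitor-labelled marrow cells that the authors' clustering by expression placed in MP. The part of that selection in the coefficient, and in the share of cells at or above 40, was not tested.

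The 12 interferon-high cells held RNA of interferon-stimulated and of stem cell genes together. Ifit3 and Ifit1, which encode antiviral proteins that bind RNA and translation factors, were at 589 and 438 CPM, against 42.2 and 37.5 CPM in the other 26 progenitor-labelled cells and 3.05 and 11.8 CPM in HSC-1. Rsad2, which encodes viperin, was at 619 CPM, Isg15, a ubiquitin-like modifier, at 317 CPM, Iigp1, a GTPase induced by interferon, at 952 CPM and Irf7 at 408 CPM. Ly6a was at 755 CPM against 155 CPM in the other 26, while Hlf was at 544 and 525 CPM and Ctla2a at 1858 and 1532 CPM. Xcr1, Clec9a and Batf3 had no UMI in them. No cell of the 12 reached 20 UMIs per 10000 of G2 and mitosis genes, which allows up to 26.5%, and 6 of the other 26 did. Their median depth was 4558.5 UMIs, against 6019.5. Their pseudotime values lay between 12.27 and 12.29, and 5 of the other 26 lay in that range too. The other 26 ran from 7.18 to 20.3 with the same median of 12.3. Since the 12 were chosen by the interferon list, their levels of its genes are a description.

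The upstream bases of Ifit1 and Ifit3 are shown because these 2 genes are among the 3 with the highest ratio of progenitor- over dendritic-labelled cells of MP, and because both hold the letters of the interferon-stimulated response element, the site of the factor that type I interferon activates. Ifit1 had 37 UMIs in progenitor-labelled cells and none in dendritic-labelled ones, which is at least 28.5-fold higher per UMI when a floor of 3 counts stands for 0, and Ifit3 had 48 and 1. The 160 bases before the start (RefSeq, GRCm38.p6) lie at chr19:34640729-34640888 for Ifit1 and at chr19:34583369-34583528 for Ifit3, both on the plus strand. Capitals mark matches to TTTC followed by any 2 bases and again TTTC, which begin 104 and 85 bases before the start in Ifit1 and 156 and 122 bases before it in Ifit3.
Ifit1: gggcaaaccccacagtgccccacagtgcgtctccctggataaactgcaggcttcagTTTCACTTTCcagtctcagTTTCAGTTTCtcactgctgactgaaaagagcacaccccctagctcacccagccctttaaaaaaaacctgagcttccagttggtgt
Ifit3: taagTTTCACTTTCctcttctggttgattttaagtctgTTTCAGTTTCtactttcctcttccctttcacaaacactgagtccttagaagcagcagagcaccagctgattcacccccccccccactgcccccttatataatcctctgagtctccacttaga
On both strands of 300 bases around each start, the motif was in 1131 of 32851 promoters (3.44%), and in 8 of the 13 genes of the interferon list with a promoter in the table. Ifit3 has a near-identical neighbour, Ifit3b, and how reads were shared between these copies is uncertain.

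Within MP the progenitor- and dendritic-labelled cells differed in many of the lists. In the progenitor-labelled cells 7.98% of 3307 tested genes (mean of both sums 50 CPM or more) were higher by 2-fold or more and 7.59% lower, and 19.9% and 15.2% passed 1.5-fold. All 13 tested interferon-stimulated genes were higher in them, with a median log2 ratio of 3.10, as were 9 of 10 stem cell genes, and all 12 type 1 markers and all 8 class II genes were lower. Dnase1l3, a secreted DNase of dendritic cells, had 64 UMIs in dendritic- and none in progenitor-labelled cells, at least 9.23-fold lower. Genes of the lymphoid-primed programme were higher in 6 of 8, among them Dntt, the template-independent DNA polymerase of lymphoid precursors, at 204 against 51.1 CPM.

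**Figure D2:**
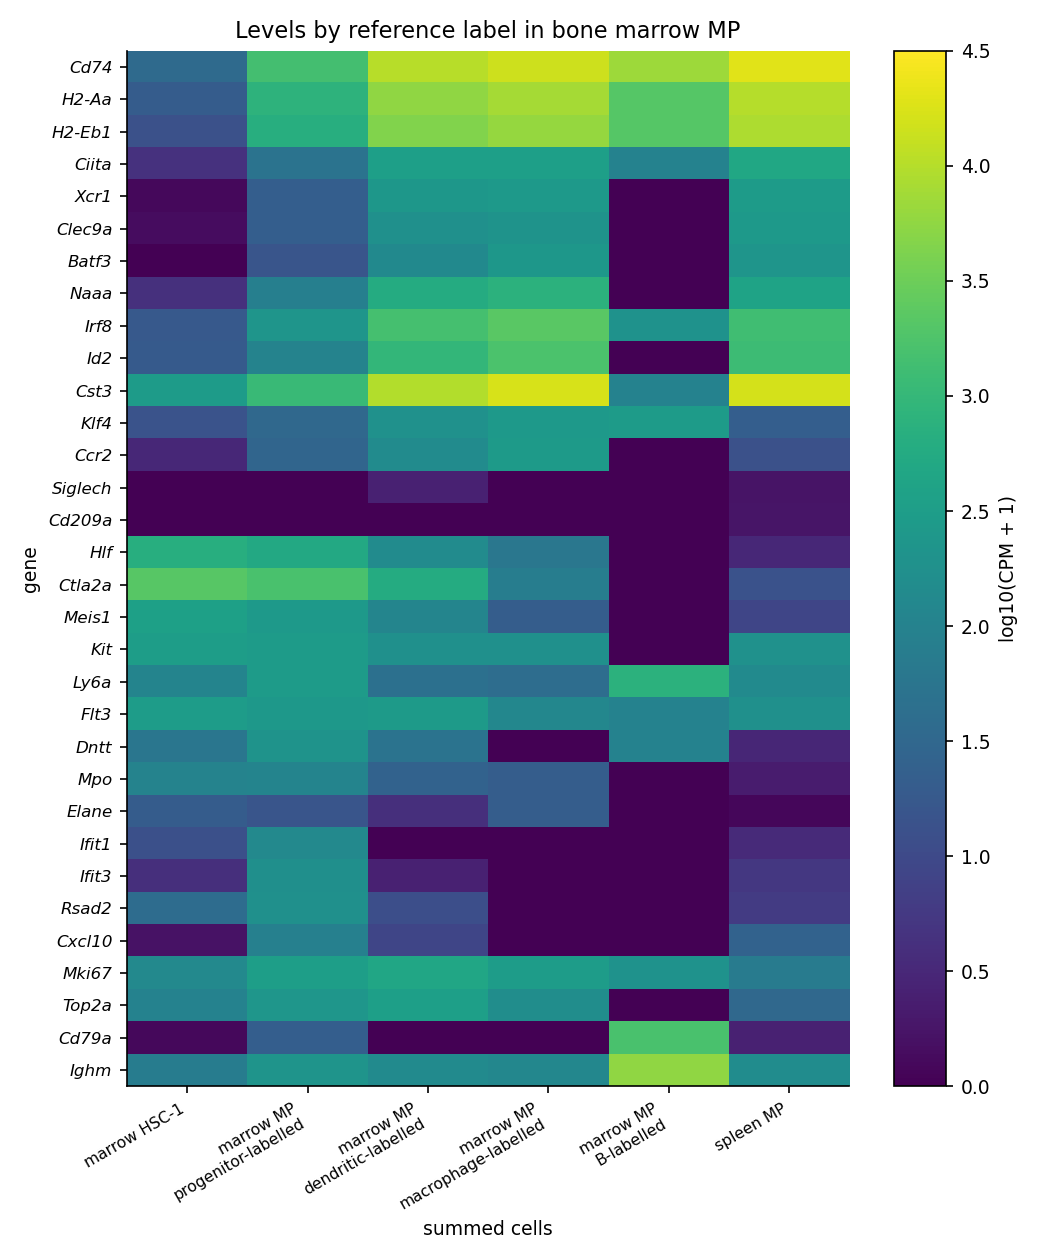
Colour gives log10(CPM + 1) of each gene (rows) in the summed cells of the marrow HSC-1 cluster, of the 4 labelled kinds of marrow MP cells and of spleen MP (columns). Class II and type 1 genes are high in dendritic- and macrophage-labelled cells and in spleen MP, Ifit1 and Ifit3 are highest in progenitor-labelled cells, and Cd79a is high in B-labelled cells.

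Marrow MP was then compared with spleen MP. Of 5946 genes tested, 652 (11.0%) were at least 2-fold higher in marrow MP and 154 (2.59%) lower, but this split depended on the scaling. With TMM factors 321 were higher and 548 lower of 5915, and the median log2 ratio of all genes went from 0.20 to -0.25. Each list is read against these medians. At 1.5-fold, 25.5% of genes were higher and 8.44% lower, and with TMM factors 586 were higher and 1617 lower of 5915. Stem cell genes were far above both medians, with 8 of 11 higher by 1.5-fold and a median log2 ratio of 4.10. Hlf was at 249 against 2.13 CPM (117-fold, 81.1 to 174) and Ctla2a at 844 against 12.9 CPM (65.6-fold, 56.1 to 76.9). Prtn3, proteinase 3, of the granulocyte precursor list, was at 288 against 5.49 CPM (52.4-fold, 41.0 to 67.6). Of the 12 genes of that list 2 were tested and 2 were higher, with a median log2 ratio of 4.96. Class II genes were lower in 8 of 11 and higher in none, with a median of -1.07, and 10 of 11 were lower with TMM factors. Tissue, sort and library cannot be told apart.

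Since the labelled kinds made up different shares of MP in both tissues, the comparison was repeated for dendritic-labelled MP cells alone, 67 of the marrow with 646351 UMIs and 1299 of the spleen. Of 5843 genes, 8.76% were at least 2-fold higher in the marrow cells and 1.80% lower (1.5-fold, 22.5% and 7.15%). With TMM factors 267 were higher and 367 lower of 5812, and at 1.5-fold 528 and 1293. The median of the interferon-stimulated list changed sides, from 1.21 over all MP cells to -0.34 in dendritic-labelled cells. In the latter 1 of 8 tested genes was higher and 3 lower, while 15 genes were tested over all MP cells, so the medians cover different genes. The list summed to 919 CPM in marrow and 962 CPM in spleen over all MP cells, and to 432 and 978 CPM in dendritic-labelled cells. Class II genes were lower in 6 of 10 and higher in none. Cd74 was at 10497 CPM in the marrow and 20092 CPM in the spleen, and its lowest, median and highest cells had 10, 101 and 248 UMIs in the marrow and 22, 215 and 787 in the spleen, so the cells overlap widely. Of the type 1 markers 10 of 14 lay between the 1.5-fold limits, among them Xcr1 at 237 and 299 CPM and Clec9a at 178 and 255 CPM; with TMM factors 8 of the 14 were lower in the marrow. Irf8 was at 1502 and 1312 CPM.

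Cxcl9, Cd8a, Dnase1l3 and Ly6a were among the 12 genes lowest in marrow dendritic-labelled cells relative to spleen. Cxcl9, a chemokine induced by interferon gamma, was at 51.1 against 426 CPM (8.34-fold lower, 5.93 to 12.1). Cd8a, which marks the type 1 cells resident in lymphoid organs, was at 23.2 against 145 CPM (6.23-fold lower, 3.77 to 11.2), with a UMI in 9 of 67 marrow cells (13.4%) and 791 of 1299 spleen cells (60.9%), at median depths of 9681 and 10789 UMIs, and in none of 357 MEP cells. Dnase1l3 was at 99.0 against 480 CPM (4.84-fold lower, 3.79 to 6.30). The Bcl2a1 genes, survival factors in near-identical copies whose reads may be shared, were among them too. Ly6a was at 44.9 against 142 CPM (3.17-fold lower, 2.20 to 4.74), although Sca1 was part of the gate in both tissues.

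Higher in marrow dendritic-labelled cells were stem cell genes, in 6 of 8 tested with 1 lower, and lymphoid-primed progenitor genes, in 7 of 8. Regulators of dendritic cell fate were mixed, with 6 of 14 higher, 2 lower (Batf3 at 135 against 223 CPM and Relb at 18.6 against 30.8 CPM) and 6 between. With TMM factors 5 were higher and 4 lower, against 528 and 1293 of all 5812 genes. Hlf had the highest ratio among genes of at least 50 CPM, at 147 against 1.25 CPM (117-fold, 70.5 to 207), and was at 415 CPM in the other marrow cells and 73.9 CPM in MEP. Ctla2a was at 585 against 8.62 CPM, with 1397 CPM in the other marrow cells and 447 CPM in MEP. Klf4 was at 190 CPM in the marrow cells (123 UMIs in 67 cells, against 287 UMIs in the 1299 spleen cells), with a UMI in 42 of 67 marrow cells (62.7%) and 209 of 1299 spleen cells (16.1%), and in 4.76% of MEP cells. Ccr2, the chemokine receptor of monocytes and of dendritic precursors that leave the marrow, was at 145 against 11.3 CPM, in 52.2% and 7.08% of cells, and in 0.840% of MEP cells. Klf4 and Ccr2 were not limited to the cells with stem cell RNA, at 198 and 188 CPM in the 37 cells under the limit of 10 and at 183 and 108 CPM in the 30 others.

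Some of the genes that were higher than in the spleen were near or above that level in the rest of the marrow library too, and the part of free RNA in their values was not tested. Zeb2, a transcription factor with roles in dendritic and myeloid fates, was at 88.2 against 9.52 CPM, but at 197 CPM in the other marrow cells. Tcf4 was at 164 against 52.3 CPM and at 289 CPM in the other marrow cells. Jun was at 888 against 185 CPM and at 847 CPM in the others. Fos, at 1577 against 947 CPM, and Atf3, at 150 against 45.6 CPM, were by contrast at 322 and 1.37 CPM in the other marrow cells. Of 11 immediate early genes 6 were higher in the marrow cells than in the spleen and none lower, and with TMM factors 5 were higher. Over all genes tested, 22.5% were at least 1.5-fold higher and 7.15% lower. With TMM factors these were 528 and 1293 of 5812 genes.

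**Figure D3:**
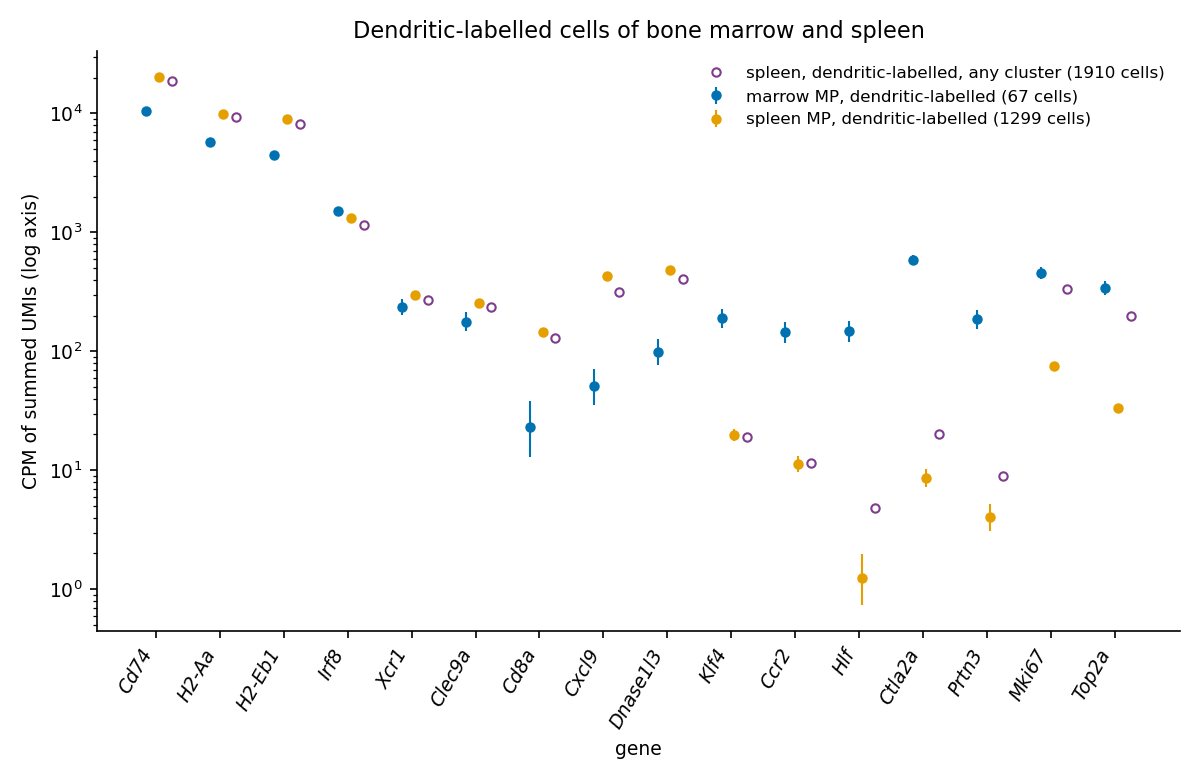
Levels in CPM (logarithmic axis) of genes in the summed dendritic-labelled MP cells of the marrow (67 cells) and of the spleen (1299 cells), with exact Poisson 95% intervals, and as open points without intervals in all 1910 dendritic-labelled spleen cells of any cluster. Hlf, Ctla2a, Prtn3, Klf4 and Ccr2 lie higher in the marrow against both spleen groups, Cd8a, Cxcl9 and Dnase1l3 lower, and for Mki67 and Top2a the gap to the open points is much smaller.

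For cell cycle genes the comparison depended on which spleen cells entered it. Of 17 tested genes of G2 and mitosis all were higher in marrow than in spleen dendritic-labelled MP cells, with a median log2 ratio of 2.48 (16 of 17 with TMM factors). Top2a, which untangles DNA before division, was at 340 against 33.2 CPM and Mki67, a marker of dividing cells, at 453 against 75.6 CPM. At 20 or more UMIs of the list per 10000, a limit set after the values were seen with 2 of the 67 marrow cells within 20% of it, there were 22 of 67 marrow cells (32.8%, 21.9 to 45.4%) and 40 of 1299 spleen cells (3.08%). In the spleen, however, only 68.0% of the 1910 dendritic-labelled cells were in MP, with 231 in the cluster DCP, 223 in HSC-1 and 101 in HSC-3, where in the marrow 98.5% were in MP. Over dendritic-labelled cells of any cluster the spleen share was 429 of 1910 (22.5%), Top2a and Mki67 were at 200 and 332 CPM there, and the median log2 ratio of 19 tested genes was -0.05 between all dendritic-labelled cells of both libraries. Hlf and Ctla2a were at 4.85 and 20.3 CPM in this wider spleen group.

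Genes of the unfolded protein response, which the deposited scores of the study also cover, were mostly within 1.5-fold between MP and the rest of the marrow. So were most of all 6608 genes tested, of which 11.4% were higher and 15.6% lower. Of 12 tested genes of the PERK, ATF4 and CHOP branch 2 were higher, 2 lower and 8 between, with a median log2 ratio of -0.06, against -0.13 over all genes. Atf4, the effector of that branch, was at 197 CPM in MP and 190 CPM elsewhere, Hspa5, the main chaperone of the endoplasmic reticulum, at 409 and 326 CPM, and Ern1, the sensor IRE1, at 17.2 and 37.3 CPM. Against spleen, 5 of 10 genes of the branch were higher in marrow dendritic-labelled cells and 1 lower, and with TMM factors 3 of 9 and 1. Among all genes of that comparison with spleen, 22.5% were higher at 1.5-fold and 7.15% lower, and with TMM factors 528 and 1293 of 5812. Atf4 was at 220 against 104 CPM in the dendritic-labelled cells, and at 190 CPM in the rest of the marrow. The authors' ER stress score had a median of 0.0910 in marrow MP, 0.0730 in the other marrow cells and 0.0925 in MEP. Against spleen it was lower, with medians of 0.0993 in marrow and 0.138 in spleen dendritic-labelled MP cells, and the genes in that score are not given in the sources used here. Their myeloid score had medians of 0.279 and 0.424 in the same cells, and 0.0438 in the progenitor-labelled ones.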

How the data were processed

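Droplet 3' single-cell RNA-seq of 1 bone marrow and 1 spleen library was used. Raw gene by cell counts of UMIs were deposited by the authors, without normalization. Per the series' design text, reads (about 27000 per cell) were processed with Cell Ranger 3.1.0 on mm10, while the submitters' processing notes list mm9 and Seurat 3.1.5, so the build is uncertain and no coordinate of the counts is printed. Clusters, reference labels, pseudotime and each score without unit are the authors', from the deposited cell table, and their integrated matrix was not used. How doublets were treated is not given in the sources used here.

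Counts were summed over cells and scaled to CPM. The log2 ratio of CPM + 1 was taken for each gene whose 2 sums averaged 20 CPM or more (50 CPM for the progenitor-labelled cells, which are few). Without replicates no test was made: 2-fold marks single genes and 1.5-fold members of 29 gene lists. Intervals are exact Poisson or Clopper-Pearson at 95%, ratios of counts by the exact binomial, and a count of 0 is bounded by 3 counts. Thinned values draw 3700 UMIs per cell (the 10th percentile of depth), leaving out shallower cells, of which marrow MP had 14. Gene symbols were taken from GENCODE M21, which held 31011 of the 31053 gene IDs. Named genes were the 12 highest and 12 lowest ratios among genes of at least 50 CPM, without gene models and mitochondrial genes, the extremes of each list and a fixed set, and other genes of the labelled kinds were named after their values were seen. The members and lists were chosen with earlier results of these data known. The alternatives were other scaling (TMM factors from edgeR 4.0.16), filters, pseudocounts, weighting, thinning and subsets of cells. Promoters are from RefSeq (GRCm38.p6). The calculations were tested on simulated data. Software was Python 3.11.15, numpy 2.4.6, pandas 2.3.3, scipy 1.17.1, scanpy 1.11.5 and matplotlib 3.10.9.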

Additional observations from a re-analysis of the deposited data

How the results depend on the processing

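No paired analysis was possible because each tissue has 1 library, and no library could be left out. The alternative without doublets was not run, since the caller marked 1 of 10088 marrow cells. Of the list medians recomputed under other settings 151 kept their direction and size, 16 moved and 4 changed sign, and of the log2 ratios of named genes 392, 44 and 4. Against the other marrow cells, 399 genes were at least 2-fold higher in MP and 241 lower. The lower count was 145 when centred on the median gene, 95 with 10 CPM added, 436 with thinned cells and 553 with dendritic-labelled MP cells alone. Both counts were 210 and 82 at a mean of at least 50 CPM, and 1114 and 1421 with no filter. Against spleen MP, 652 were higher and 154 lower. These were 321 and 548 with TMM factors, 225 and 87 at 50 CPM, 3164 and 581 with no filter, and 339 and 94 for dendritic-labelled cells of any cluster, a setting chosen after seeing the data. The lower count was 260 when centred and 100 with 10 CPM added. The interferon list median against spleen changed sign to -0.34 in dendritic-labelled MP cells, -0.0225 in dendritic-labelled cells of any cluster and -0.61 in those under 10 stem cell UMIs per 10000 (also chosen after seeing the data). Ifit3 had log2 ratios of -0.74, -0.37 and -1.88 in the same 3 settings, and -0.20 against the other marrow cells with dendritic-labelled MP cells. These settings leave out the progenitor-labelled cells that held 48 of the 49 Ifit3 UMIs. In dendritic-labelled MP cells the interferon list median covered 8 tested genes, against 15 over all MP cells. The G2 and mitosis median became -0.0481 with cells of any cluster. By reference labels that name a dendritic cell, the share of the marrow library was 0.674% in place of 1.17%. The number of MP cells, 118, limits the precision of all low counts.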
